A study of Mus musculus with 23 samples.

Results

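Transcripts of 7 matrix metalloproteinase (MMP) genes and 3 tissue inhibitor of metalloproteinases (TIMP) genes were measured in mouse liver. The 10 members, *Mmp2*, *Mmp7*, *Mmp9*, *Mmp12*, *Mmp13*, *Mmp14*, *Mmp19*, *Timp1*, *Timp2* and *Timp3*, were taken by gene symbol from 27179 genes in the count table, and 10 of 10 were among the 20380 genes with a read in any mouse. Poly(A) RNA was sequenced from pieces of liver without visible tumors, taken from 15 female mice. The paper reports liver tumors in all ABpIF/F mice and in a part of the ABpIF/+ mice. In every mouse the Cre recombinase was driven by the albumin promoter (Alb-Cre), and each carried 2 floxed *Trp53* alleles. The 6 Ctrl mice had wild-type *Braf* and 1 floxed *Icmt* allele. The 6 ABpIF/+ mice carried the BrafCA/+ allele, which encodes BRAF V600E after recombination, and 1 floxed *Icmt* allele, and the 3 ABpIF/F mice carried BrafCA/+ and 2 floxed *Icmt* alleles. The sample labels write the *Braf* genotype of the latter groups as +/+, whereas the design text of the series gives the activated allele. Ages were not tied to mouse names in the sources used here. The paper describes ABpIF/F mice of different ages, with larger tumors in the older ones. Alb-Cre is designed to act in hepatocytes, so stellate cells and macrophages would keep their unrecombined alleles. The paper describes the floxed *Icmt* allele as less expressed even before recombination. Recombination in each cell type, cholangiocytes among them, was not measured here.

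MMPs are zinc-dependent endopeptidases that cut collagens, laminins, fibronectin and other proteins of the extracellular matrix, as well as cytokines and receptors at the cell surface. Most are secreted as inactive zymogens whose prodomain must be removed, and TIMPs block the active site in a 1:1 complex. In liver, hepatic stellate cells, macrophages and neutrophils are known sources of several MMPs, and turnover of matrix in fibrosis and regeneration depends on the balance of proteases and inhibitors. MMP14 (MT1-MMP) is anchored in the plasma membrane and activates pro-MMP2 in a complex that contains TIMP2, so these 3 gene products work as a unit. Here only transcripts were measured, and neither protease activity nor zymogen processing can be read from them.

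Library totals ran from 24742910 to 32262649 counts. Expression is given in CPM, a gene's share of the reads of its library in parts per 1e6 after scaling by TMM (trimmed mean of M values), and genes that differed at least 2-fold with an edgeR adjusted p under 0.01 were called. *Icmt*, the targeted gene, lay between 15.2 and 16.6 CPM in ABpIF/F and between 27.8 and 37.4 CPM in the other mice. Of 6 hepatocyte markers, *Alb*, *Ttr* and *Hnf4a* had a mean of at least 513 CPM in every group. *Tat*, a tyrosine-degrading enzyme of hepatocytes, was at a mean of 2060 CPM in Ctrl, 4286 in ABpIF/+ and 589 in ABpIF/F, and was called in both comparisons with Ctrl (log2 fold changes 1.06 and -1.81), the former not without malpa387, malpa454, malpa458, malpa459, BG175, BG55 or BG88 (edgeR adjusted p from 0.0111 to 0.0179). The 6 markers summed to 87811 to 117454 CPM in Ctrl, 144351 to 198294 in ABpIF/+ and 104721 to 190210 in ABpIF/F, so that Ctrl and ABpIF/+ did not overlap. A score of clock genes, the mean log2 CPM of *Arntl*, *Npas2* and *Clock* minus that of 6 genes of the opposite phase, was between -0.71 and 1.88 in ABpIF/F, between -5.41 and -4.50 in ABpIF/+ and between -6.30 and -5.16 in 5 Ctrl mice. It was 0.27 in the Ctrl mouse malpa387. Of the Ctrl mice, 5 carry another strain label than all other mice. BG3, the Ctrl mouse with the strain label of the others, had 42.3 CPM of *Mmp14*, 2.67 of *Mmp2*, 47.5 of *Mmp19* and 17.1 of *Timp2*. Apart from malpa387, the other 4 Ctrl mice had 28.7 to 32.9, 2.01 to 2.50, 56.3 to 72.4 and 13.3 to 14.9 CPM. BG3 lay outside the range of these 4 for each gene. It lay toward the ABpIF/+ mice for *Mmp14* and *Mmp19* and away from them for *Mmp2* and *Timp2*. The mouse malpa387 had 49.7, 3.35, 32.6 and 17.5 CPM. With malpa387 counted, BG3 lay within the range of the 5 Ctrl mice of the other strain label for each gene. BG3 was still below every ABpIF/+ mouse for *Mmp14* and above every one for the other 3 genes. With 1 such Ctrl mouse, the part of strain in the differences was not tested. The ABpIF/F mouse BG38 had the largest TMM factor, 1.24 against 0.85 to 1.09 in the others.

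In ABpIF/+ vs Ctrl livers the proteases did not move together. *Mmp14* rose 2.44-fold and the macrophage elastase gene *Mmp12* rose 9.07-fold, while *Mmp19* fell, to a level lower by 3.10-fold, the gelatinase gene *Mmp2* was lower by 6.05-fold and the inhibitor gene *Timp2* was lower by 1.13 on the log2 scale. Thus 5 of 10 members were called, 2 higher and 3 lower, where 13.4% of all genes with a read were called (6.26% higher and 7.13% lower). The members were chosen with earlier results of these data known, so such counts and shares are descriptions and not a test. In 4 members the groups did not overlap (21.2% of all genes). The median log2 fold change was -0.44 over the members and 0 over all genes with a read. Leaving out the ABpIF/F mice or adding the clock score kept 4 of the 5 calls, all but *Mmp12*.

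In ABpIF/F vs Ctrl only *Mmp14* was called by edgeR, 1 of 10 members against 9.24% of all genes (6.06% higher and 3.17% lower), and none was called lower. The groups did not overlap in 3 members (22.8% of all genes). At an unadjusted p under 0.05 edgeR gave 6 members higher and 0 lower, where 35.2% of all genes had such a p. DESeq2 called 4 higher and 0 lower at the thresholds of the calls, with no DESeq2 share over all genes given here. The members had a median log2 fold change of 1.47, against 0.093 over all genes. In ABpIF/+ vs ABpIF/F 5 members were called lower and 0 higher, namely *Mmp2*, *Mmp9*, *Mmp13*, *Mmp19* and *Timp2*, where 9.66% of all genes were called (2.35% higher and 7.32% lower). The groups did not overlap in 4 members (24.9% of all genes). At an unadjusted p under 0.05 edgeR gave 6 lower and 0 higher, where 37.3% of all genes had such a p. DESeq2 called 5 lower and 0 higher, again without a DESeq2 share. The median was -1.43, against -0.049. These comparisons share mice, so their values are set side by side and are not independent of each other. With the clock score as a covariate edgeR called 0 members in each comparison with ABpIF/F, and 1 (ABpIF/F vs Ctrl) and 3 (ABpIF/+ vs ABpIF/F) had an unadjusted p under 0.05. The log2 fold changes in ABpIF/+ vs ABpIF/F with the score were -2.64 for *Mmp2*, -2.22 for *Mmp9*, -2.16 for *Mmp13*, -1.86 for *Mmp19* and -1.49 for *Timp2*. Without it they were -2.85, -2.66, -2.83, -1.14 and -1.72. With the score *Mmp19* in ABpIF/F vs Ctrl (0.21) and *Mmp14* in ABpIF/+ vs ABpIF/F (0.28) changed sign. Outside ABpIF/F only the Ctrl mouse malpa387 had a score in the ABpIF/F range. The fit therefore cannot tell the score and the ABpIF/F genotype apart.

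**Figure D1:**
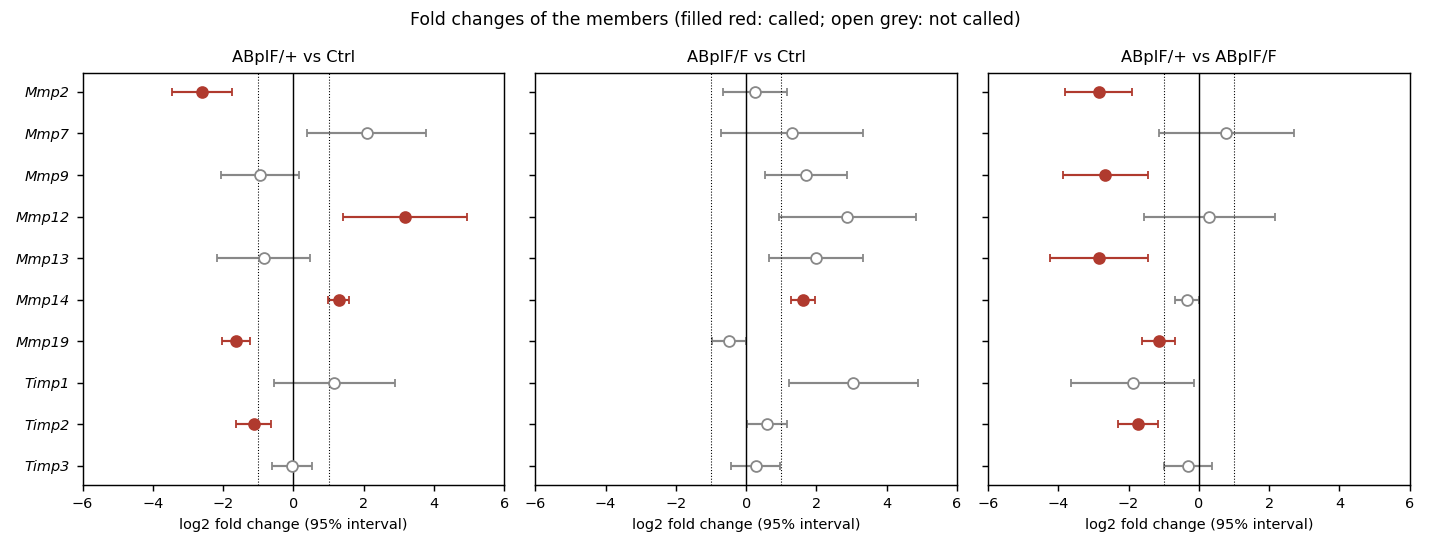
Log2 fold change of each member (x axis, with its 95% interval from the edgeR fit) in the 3 comparisons; filled red points passed the call thresholds and open grey points did not, and dotted lines mark a log2 fold change of -1 and 1. *Mmp14* lies to the right in both comparisons with Ctrl, at 1.29 and 1.63, whereas *Mmp2*, *Mmp19* and *Timp2* lie to the left wherever ABpIF/+ is the first group.

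The members differed widely in level. Compared per length (CPM per kilobase of exon), the Ctrl mean was 16.2 ± 4.29 (SD, n = 6 mice) for *Mmp19* and 5.98 ± 1.42 for *Mmp14*. *Timp2* followed at 3.91 ± 0.435 and *Timp3* at 3.44 ± 0.543, which differed by less than their spread. *Mmp2*, *Mmp9*, *Timp1*, *Mmp13*, *Mmp7* and *Mmp12* were at 0.748 CPM per kilobase or less in Ctrl. The order of the leading pair was the opposite in ABpIF/+, where *Mmp14* reached 14.6 ± 1.94 and *Mmp19* 5.22 ± 0.924 CPM per kilobase (SD, n = 6). In ABpIF/F *Mmp14* was at 18.5 ± 3.15 and *Mmp19* at 11.5 ± 3.75 (SD, n = 3). Averaged over all 15 mice, 6 members had at least 1 CPM and 4 (*Mmp7*, *Mmp9*, *Mmp13* and *Timp1*) had less, so that their folds rest on few reads.

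**Figure D2:**
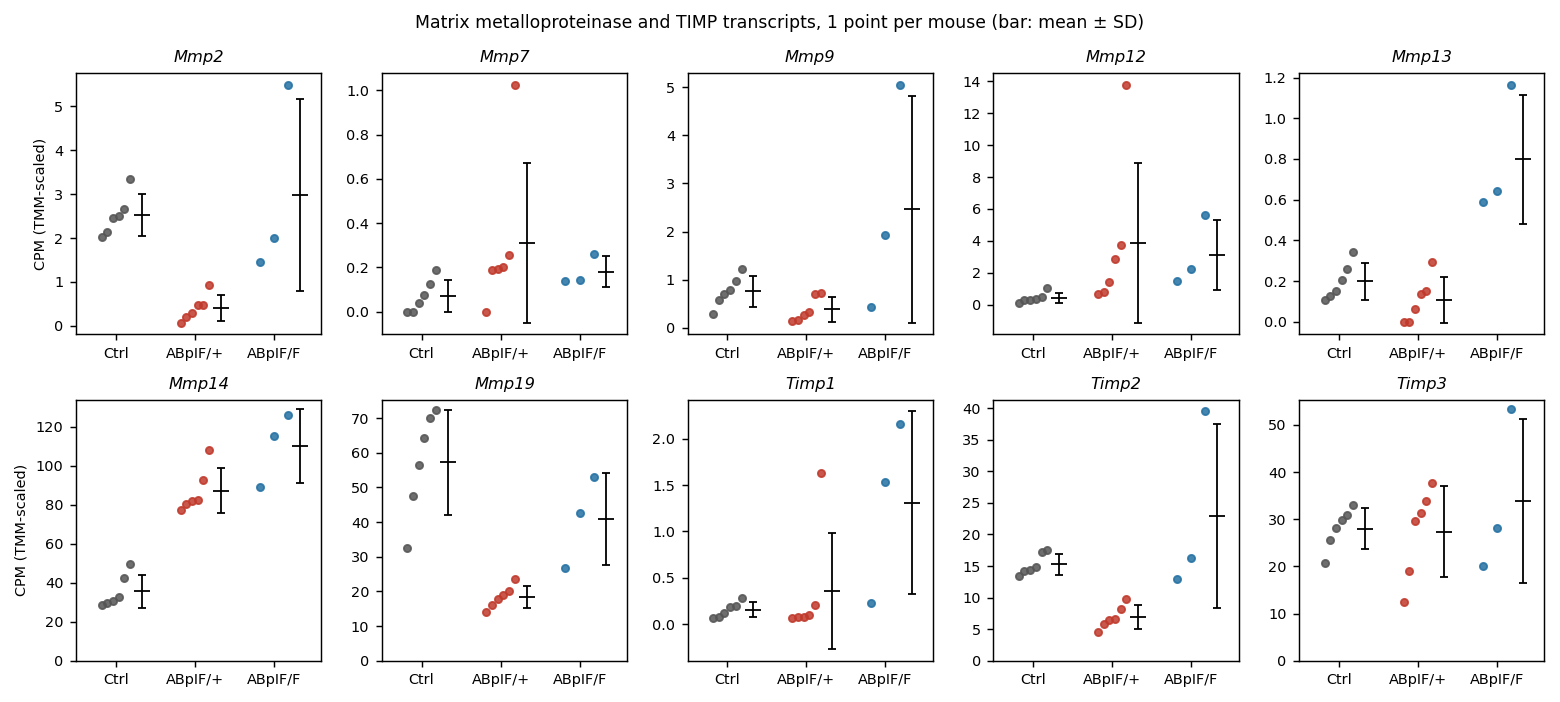
CPM (TMM-scaled, y axis, a separate scale per panel) of the 10 members in each mouse by group, with the mean ± SD beside the points. *Mmp14* is between 28.7 and 49.7 CPM in Ctrl and between 77.3 and 126 CPM in all other mice. *Mmp2*, *Mmp9*, *Mmp13*, *Timp1*, *Timp2* and *Timp3* are highest of all mice in the ABpIF/F mouse BG38.

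The membrane-anchored protease and its partners were described first. *Mmp14* (Entrez 17387; GRCm38 chromosome 14, 54431612 to 54445364) had 812 to 1336 counts in Ctrl mice. Its CPM were 28.7, 31.7 and 49.7 (lowest, median, highest) in Ctrl and 77.3, 82.2 and 108 in ABpIF/+ mice. In ABpIF/F they were 89.3 in BG183, 115 in BG38 and 126 in BG90. All 9 mice with activated *Braf* lay above all 6 Ctrl mice, and the ABpIF/+ and ABpIF/F mice overlapped. The log2 fold change was 1.29 (SE 0.14, edgeR adjusted p = 3.35e-07) in ABpIF/+ vs Ctrl and 1.63 (SE 0.17, edgeR adjusted p = 2.78e-07) in ABpIF/F vs Ctrl. For ABpIF/+ vs ABpIF/F it was -0.34 (95% interval -0.69 to 0.012, edgeR adjusted p = 0.197). With the clock score in the fit the value in ABpIF/F vs Ctrl was 1.08 and no longer called (edgeR adjusted p = 0.0113).

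*Mmp2* (Entrez 17390; chromosome 8, 92827291 to 92853420), which encodes gelatinase A and is made mainly by stellate cells and fibroblasts, went the other way in ABpIF/+. It was at 2.01, 2.48 and 3.35 CPM in Ctrl and at 0.0737, 0.383 and 0.927 in ABpIF/+ mice. In ABpIF/F it was at 1.99 (BG183), 5.48 (BG38) and 1.46 CPM (BG90). Every ABpIF/+ mouse lay below every mouse of the other groups, with 2 to 29 counts against 41 to 198. Against Ctrl the log2 fold change of ABpIF/+ was -2.60 (SE 0.41, edgeR adjusted p = 4.34e-05), and against ABpIF/F -2.85 (SE 0.46, edgeR adjusted p = 0.00015). Without BG38 the latter was -2.05 and remained called. In ABpIF/F vs Ctrl it was 0.25 (95% interval -0.66 to 1.15), and -0.54 without BG38.

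*Timp2* (Entrez 21858; chromosome 11, 118301069 to 118355740, minus strand) encodes the inhibitor that links pro-MMP2 to MMP14. Its CPM were 13.3, 14.6 and 17.5 in Ctrl and 4.52, 6.57 and 9.82 in ABpIF/+ mice, and 12.9 (BG183), 39.6 (BG38) and 16.3 (BG90) in ABpIF/F. Again each ABpIF/+ mouse lay below all others. The log2 fold change was -1.13 (SE 0.23, edgeR adjusted p = 0.00121) in ABpIF/+ vs Ctrl and -1.72 (SE 0.27, edgeR adjusted p = 0.000235) in ABpIF/+ vs ABpIF/F, the latter -1.07 and still called without BG38. The value in ABpIF/F vs Ctrl was 0.59 (edgeR adjusted p = 0.175), and -0.065 without BG38.

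The ratio of *Mmp14* to *Timp2* transcripts, per length, was thus shifted. It was 1.30, 1.50 and 1.85 (lowest, median, highest) in Ctrl and 5.46, 8.37 and 13.4 in ABpIF/+ mice, and 4.53, 1.90 and 5.06 in the ABpIF/F mice BG183, BG38 and BG90. No mouse with activated *Braf* fell within the Ctrl range. The ratio of *Mmp14* to *Mmp2* was between 7.00 and 8.97 in Ctrl, between 11.9 and 48.6 in ABpIF/F, and above 48.6 in every ABpIF/+ mouse, with a median of 138 and a highest value of 632, so that the 3 groups did not overlap. These ratios are descriptions and were given no test. The sum of all 7 MMP members over that of the 3 TIMP members had medians of 2.99, 3.32 and 4.08 in Ctrl, ABpIF/+ and ABpIF/F, and the groups overlapped.

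**Figure D3:**
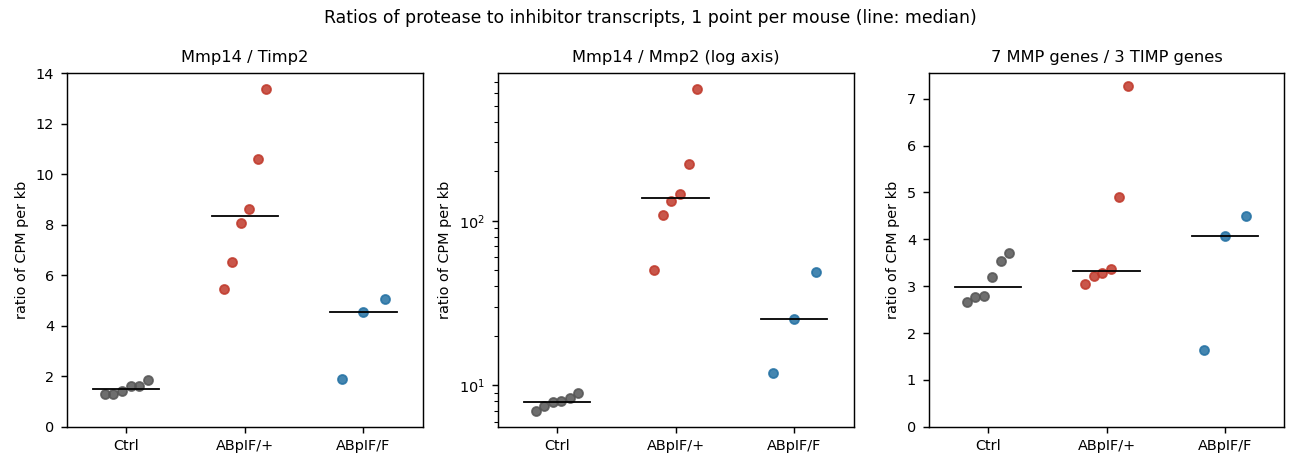
Ratios of CPM per kilobase (y axis) in each mouse for *Mmp14* to *Timp2*, *Mmp14* to *Mmp2* (log axis) and the summed 7 MMP to 3 TIMP members, with group medians as lines. The first pair of ratios is higher in all 9 mice with activated *Braf* than in the 6 Ctrl mice, whereas the ratio of the sums overlaps between groups, with medians from 2.99 to 4.08.

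*Mmp19* (Entrez 58223; chromosome 10, 128790910 to 128800824) encodes a secreted protease that cuts basement membrane components. It had 32.6, 60.3 and 72.4 CPM in Ctrl and 14.1, 18.3 and 23.5 CPM in ABpIF/+ mice, and 42.7 (BG183), 26.6 (BG38) and 52.9 (BG90) in ABpIF/F. The ABpIF/+ mice were below all others, and the Ctrl and ABpIF/F mice overlapped. On the log2 scale the difference was -1.63 (SE 0.19, edgeR adjusted p = 3.23e-06) in ABpIF/+ vs Ctrl and -1.14 (SE 0.23, edgeR adjusted p = 0.00139) in ABpIF/+ vs ABpIF/F. Without BG90 the latter was -0.91 and no longer called. For ABpIF/F vs Ctrl it was -0.49 (95% interval -0.99 to 0.0052, edgeR adjusted p = 0.195). Exons of *Mmp19* share 789 bases with *Tmem198b* on the opposite strand in GENCODE M21, and *Tmem198b* was at 2.42 to 4.65 CPM in these mice. The strand setting of the counting is not given in the sources used here, and without strand the reads of such pairs cannot be told apart.

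Of the summed MMP transcripts per length, *Mmp19* held a median of 73.2% in Ctrl and *Mmp14* 21.7%. In ABpIF/+ *Mmp19* held 23.8% and *Mmp14* 69.4%, and in ABpIF/F 39.8% and 56.1%. The sum itself was 23.3 ± 2.89, 20.9 ± 1.80 (SD, n = 6 each) and 32.5 ± 4.67 CPM per kilobase (SD, n = 3), so the make-up shifted while the Ctrl and ABpIF/+ totals overlapped. Within Ctrl, *Mmp14* held 43.9% in malpa387, the mouse with a clock score of 0.27, 32.4% in BG3 and 18.9 to 22.6% in the other 4.

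**Figure D4:**
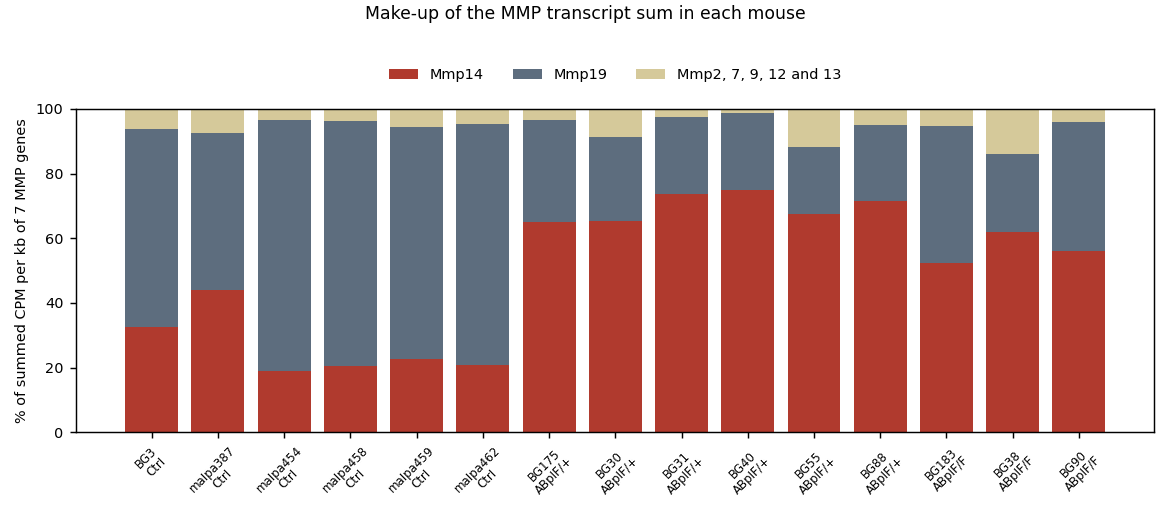
Share of the summed CPM per kilobase of the 7 MMP members (y axis, %) held by *Mmp14*, *Mmp19* and the other 5 genes in each of the 15 mice. *Mmp14* holds 18.9 to 43.9% in Ctrl, 65.1 to 75.1% in ABpIF/+ and 52.5 to 61.8% in ABpIF/F mice.

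Among the proteases of macrophages and neutrophils, *Mmp12* (Entrez 17381; chromosome 9, 7344381 to 7369499), the macrophage elastase gene, was at 0.0820, 0.320 and 1.02 CPM in Ctrl. It was at 0.658, 2.14 and 13.8 CPM in ABpIF/+ and at 2.25 (BG183), 5.62 (BG38) and 1.50 (BG90) in ABpIF/F mice. The ABpIF/+ mice overlapped with Ctrl and the ABpIF/F mice did not. Its log2 fold change was 3.18 (SE 0.81, edgeR adjusted p = 0.0097) in ABpIF/+ vs Ctrl, just inside the threshold. It was still called in 4 of 15 fits that each left out a mouse, and the edgeR adjusted p of those fits ran from 0.00512 to 0.0256. The ABpIF/+ mouse BG55, at 13.8 CPM, was not needed for the call, and without it the value was 2.15. In ABpIF/F vs Ctrl it was 2.88 (SE 0.90, edgeR adjusted p = 0.0426), which was not called, and in ABpIF/+ vs ABpIF/F 0.30 (95% interval -1.56 to 2.16).

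*Mmp9* (Entrez 17395; chromosome 2, 164940780 to 164955850), the gelatinase B gene, which is stored in neutrophil granules as protein, had few reads. It was at 0.283, 0.742 and 1.23 CPM in Ctrl, at 0.151, 0.297 and 0.716 in ABpIF/+, and at 0.424 (BG183), 5.04 (BG38) and 1.93 (BG90) in ABpIF/F. Among the ABpIF/F mice, BG38 and BG90 lay above all mice of the other groups and BG183 within their range. The log2 fold change in ABpIF/+ vs ABpIF/F was -2.66 (SE 0.58, edgeR adjusted p = 0.00243), and -1.59 and not called without BG38 (edgeR adjusted p = 0.1). The summed neutrophil markers of BG38 and BG90, at 104 and 39.9 CPM, were above the 2.54 to 12.0 CPM of all other mice. The contribution of neutrophils to *Mmp9* was not tested.

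The collagenase gene *Mmp13* (Entrez 17386; chromosome 9, 7272514 to 7283331) had 3 to 11 counts in Ctrl, 0 to 8 in ABpIF/+ and 18 to 42 in ABpIF/F mice. Its CPM were 0.106, 0.177 and 0.342 in Ctrl, 0, 0.100 and 0.295 in ABpIF/+, and 0.587 (BG183), 1.16 (BG38) and 0.643 (BG90) in ABpIF/F. All ABpIF/F mice lay above all others. Between ABpIF/+ and ABpIF/F the log2 fold change was -2.83 (SE 0.67, edgeR adjusted p = 0.00433), which was no longer called without BG38, BG90 or BG175 (edgeR adjusted p = 0.0436, 0.0105 and 0.0113). Against Ctrl the ABpIF/F value was 1.98 (SE 0.64, edgeR adjusted p = 0.0348). The matrilysin gene *Mmp7* (Entrez 17393), expressed by ductular epithelium in many organs, had at most 8 counts in any mouse but the ABpIF/+ mouse BG30, with 30. Its log2 fold changes against Ctrl, 2.09 and 1.31, were not called (edgeR adjusted p = 0.0674 and 0.481). Without BG30 the ABpIF/+ value was 1.21 (edgeR adjusted p = 0.388).

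The remaining inhibitors did not pass the thresholds. *Timp1* (Entrez 21857; X chromosome, 20870166 to 20874735), a gene induced by inflammation and by stellate cell activation, was at 0.0706, 0.155 and 0.287 CPM in Ctrl and at 0.0640, 0.0889 and 1.62 in ABpIF/+ mice. It was at 0.228 (BG183), 2.16 (BG38) and 1.54 (BG90) in ABpIF/F. Only BG40 of the ABpIF/+ mice, and BG38 and BG90, exceeded 1 CPM. Its log2 fold change in ABpIF/F vs Ctrl was 3.05 (SE 0.87, edgeR adjusted p = 0.0195). Of 15 fits that each left out a mouse, 2 called it, those without BG40 and BG183 (edgeR adjusted p = 0.000645 and 0.0061). Without BG38 the value was 2.47 (edgeR adjusted p = 0.139), and the DESeq2 adjusted p over all mice was 0.00503.

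*Timp3* (Entrez 21859; chromosome 10, 86300372 to 86349506), whose product binds to the matrix itself and also inhibits ADAM proteases, differed between groups by less than the spread over mice. Its CPM were 20.7, 29.0 and 33.1 in Ctrl, 12.4, 30.5 and 37.7 in ABpIF/+, and 28.0 (BG183), 53.3 (BG38) and 20.2 (BG90) in ABpIF/F. The 3 groups overlapped. Its log2 fold change in ABpIF/+ vs Ctrl was -0.035 (95% interval -0.61 to 0.54), in ABpIF/F vs Ctrl 0.27 (-0.42 to 0.96) and in ABpIF/+ vs ABpIF/F -0.31 (-0.998 to 0.382). The ratio of *Timp3* to *Timp2*, per length, was 0.564 to 1.07 in Ctrl, 1.31 to 2.78 in ABpIF/+ and 0.594 to 1.04 in ABpIF/F, so the ABpIF/+ mice stood apart. Exons of *Timp3* share 1733 bases with *Syn3* on the opposite strand, and *Syn3* was at 2.02 to 5.53 CPM.

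The cells that are known to make these proteases were not constant between the groups. In bulk tissue, fewer cells of a type and less RNA per cell cannot be told apart. Beside the list counts below, 13.4% of all genes with a read were called in ABpIF/+ vs Ctrl. The share was 9.24% in ABpIF/F vs Ctrl and 9.66% in ABpIF/+ vs ABpIF/F. Of 12 markers of stellate cells and myofibroblasts, 8 were called lower and 0 higher in ABpIF/+ vs Ctrl. Their summed level was 207 to 311 CPM in Ctrl, 73.2 to 144 in ABpIF/+ and 228 to 330 in ABpIF/F mice, and none of the 12 was at 0 throughout a group. *Lrat*, *Des* and *Pdgfrb*, which define these cells, had log2 fold changes of -2.48, -1.84 and -1.55. In ABpIF/+ vs ABpIF/F 8 were called lower and 0 higher, and 4 lower without BG38.

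Against the summed stellate markers, *Timp2* amounted to 5.52 to 6.69% in Ctrl, 5.94 to 7.97% in ABpIF/+ and 4.62 to 12.0% in ABpIF/F mice, so these ranges overlapped. *Mmp2* amounted to 0.859 to 1.28% in Ctrl and 0.0666 to 0.661% in ABpIF/+, with no overlap. In ABpIF/F it amounted to 0.641 to 1.66%, which overlapped with both. *Mmp14* amounted to 12.0 to 19.0% in Ctrl, 56.9 to 127% in ABpIF/+ and 32.0 to 55.1% in ABpIF/F, with no overlap between any of these groups. The part of stellate cell content in the *Mmp2* and *Timp2* differences was not tested.

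Of 13 macrophage and Kupffer cell markers, 5 were called lower and 2 higher in ABpIF/+ vs Ctrl, with a summed level of 376 to 512 CPM in Ctrl, 155 to 270 in ABpIF/+ and 320 to 813 in ABpIF/F, and none was at 0 throughout a group. The defining markers *Adgre1*, *Csf1r* and *Clec4f* had log2 fold changes of -1.92, -1.29 and -1.23. The 2 called higher were *Gpnmb* and *Trem2*, genes of lipid-laden and phagocytic macrophages, with log2 fold changes of 3.40 and 1.91 and overlapping groups. *Mmp12* was also called higher, and the sum of the 13 markers was lower in ABpIF/+. *Gpnmb* was not called without malpa387, malpa454, malpa458, malpa459, malpa462 or BG30 (edgeR adjusted p from 0.0125 to 0.0174). *Mmp12* amounted to 0.0168 to 0.272% of the sum in Ctrl and 0.390 to 6.35% in ABpIF/+. In ABpIF/F it amounted to 0.242 to 0.703%, which overlapped with both. *Mmp19* amounted to 7.28 to 18.7% in Ctrl, 6.16 to 12.0% in ABpIF/+ and 3.28 to 13.3% in ABpIF/F, which overlapped. The part of macrophage content in these values was not tested.

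Of 11 neutrophil markers, 10 were called higher in ABpIF/F vs Ctrl and 0 lower, with *S100a8* and *S100a9* at log2 fold changes of 4.78 and 4.82, and 1 was called higher in ABpIF/+ vs Ctrl (5 without BG183). Without BG38 the 10 were 6, and *S100a8* was no longer called (3.28, edgeR adjusted p = 0.0108). *Ly6g* had no read in Ctrl and at most 12 in any mouse. Of 10 cholangiocyte markers, 7 were called higher and 0 lower in ABpIF/F vs Ctrl, with summed levels of 62.3 to 99.7 CPM in Ctrl, 60.4 to 186 in ABpIF/+ and 260 to 1292 in ABpIF/F. *Epcam* was called (log2 fold change 1.69, and 1.03 and not called without BG38) and *Krt19* and *Krt7* were not (1.10 and 0.71). *Spp1* alone had a mean of 660 CPM in ABpIF/F. The *Mmp14* levels of ABpIF/+ and ABpIF/F mice overlapped, and the cholangiocyte sums did not. Against the cholangiocyte sum, *Mmp14* amounted to 36.1 to 55.9% in Ctrl and 46.1 to 128% in ABpIF/+, which overlapped. In ABpIF/F it amounted to 8.91 to 34.3%. The part of cholangiocyte content in *Mmp14* was not tested. Of 8 endothelial markers 2 were called lower, and of 10 lymphocyte markers 3 were called lower, in ABpIF/+ vs Ctrl (1 without malpa459 and 5 without BG175).

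**Figure D5:**
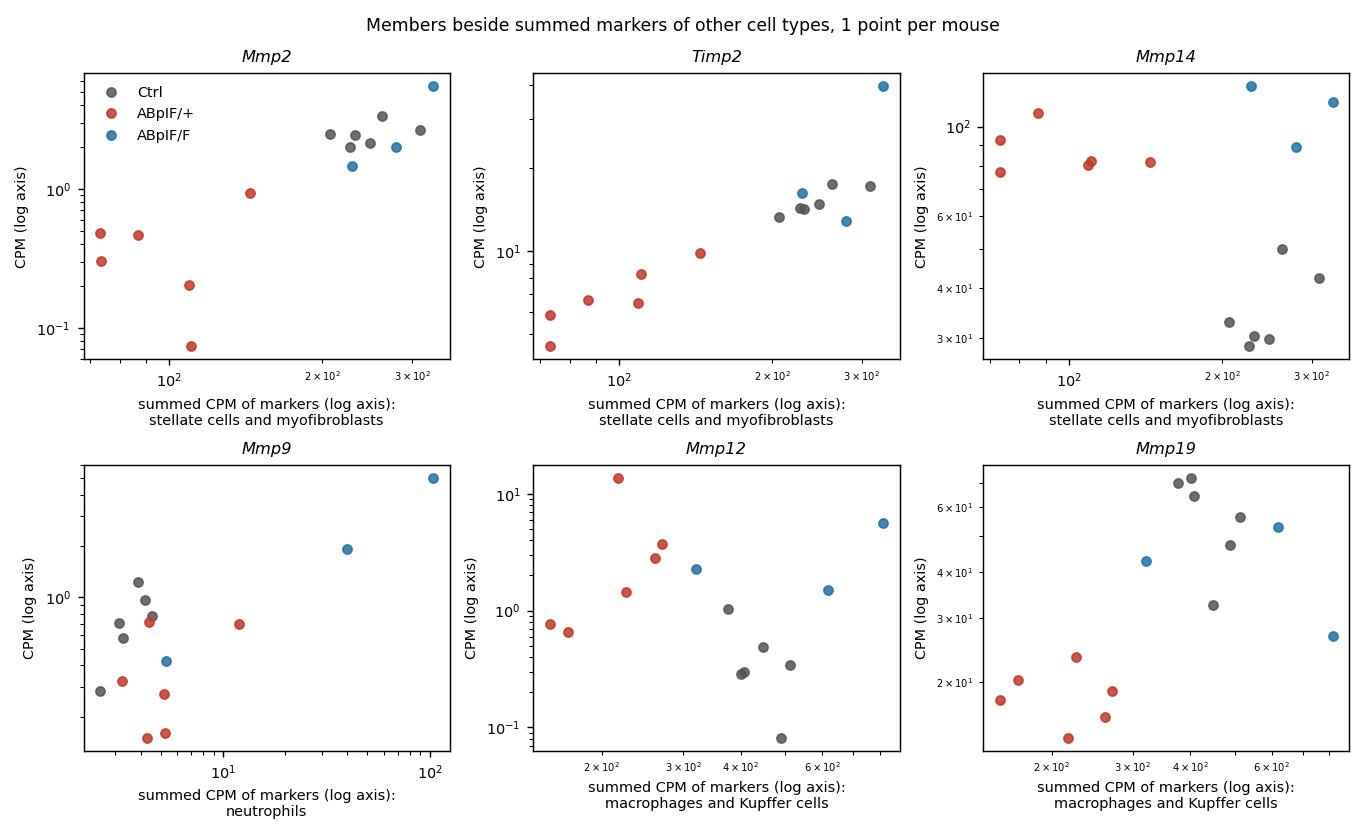
CPM of 6 members (y axis, log) against the summed CPM of marker genes of stellate cells, neutrophils or macrophages (x axis, log), 1 point per mouse and colored by group. *Timp2* and *Mmp2* are lowest in the ABpIF/+ mice, whose stellate markers sum to 73.2 to 144 CPM, whereas *Mmp14* is at 77.3 to 108 CPM in the same mice.

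The other genes of the family were counted from a list of 17. Of these, 13 had a read, and *Mmp15* and *Timp4* had a mean of at least 1 CPM. In ABpIF/+ vs Ctrl 1 was called lower and 0 higher, in ABpIF/F vs Ctrl 2 higher and 0 lower, and in ABpIF/+ vs ABpIF/F 3 lower and 0 higher. Of all genes with a read, 7.13% were called lower, 6.06% higher and 7.32% lower in these comparisons, in that order. Without BG38 none of the family list was called in either comparison with ABpIF/F. *Mmp15*, which like *Mmp14* encodes a membrane-type protease, was at 44.3 ± 10.3 and 46.2 ± 5.72 CPM in Ctrl and ABpIF/+ (SD, n = 6 each) and at 71.7 ± 36.1 in ABpIF/F (SD, n = 3), and was not called. The neutrophil collagenase gene *Mmp8* had 0 to 5 counts in Ctrl mice and 4, 166 and 36 in BG183, BG38 and BG90, which gave 5.01 on the log2 scale (SE 0.88, edgeR adjusted p = 0.0004) with overlapping groups, and 3.50 without BG38 (edgeR adjusted p = 0.0141, not called). The stromelysin-3 gene *Mmp11* rose with a log2 fold change of 2.41 (SE 0.44, edgeR adjusted p = 0.000334) in ABpIF/F vs Ctrl, with no overlap, and was at 1.67 and not called without BG38 (edgeR adjusted p = 0.0193). *Mmp23* fell by 1.40 on the log2 scale in ABpIF/+ vs Ctrl (edgeR adjusted p = 0.00527), and was not called without BG3, malpa387, malpa462, BG175, BG30, BG31 or BG40 (edgeR adjusted p from 0.0104 to 0.0142).

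The inhibitor gene *Timp4* (Entrez 110595; chromosome 6, 115241892 to 115252205) had no read in the 6 Ctrl mice. In ABpIF/+ it was at 0.0640 CPM in BG175, 1.36 in BG30, 3.06 in BG31, 19.6 in BG40, 10.3 in BG55 and 0.737 in BG88. It had 0, 6 and 2 counts in the ABpIF/F mice BG183, BG38 and BG90. Every ABpIF/+ mouse thus had reads, over a wide range. The ABpIF/+ mean, 5.86 CPM, was at least 54.7-fold higher than 3 counts in each Ctrl library would give, a floor that covers counting error only. Without BG40 the mean was 3.11 CPM and the bound 29.0-fold, the median over the 6 mice was 2.21 CPM, and BG175 lay below the floor of 0.107 CPM. The edgeR adjusted p = 0.0147 missed the threshold, and *Timp4* was called without BG175 (edgeR adjusted p = 0.00623).

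Activators and other inhibitors of MMPs were counted from a list of 18, all with a read. In ABpIF/+ vs Ctrl 3 were called higher and 3 lower, in ABpIF/F vs Ctrl 5 higher and 1 lower, and in ABpIF/+ vs ABpIF/F 0 higher and 7 lower. Without BG38 the latter counts were 3 higher and 1 lower, and 0 higher and 4 lower. Without BG40 1 was called lower in ABpIF/+ vs Ctrl. *Reck*, which encodes a membrane-anchored inhibitor of several MMPs including MMP14, was at 6.87 ± 1.09 CPM in Ctrl, 1.09 ± 0.393 in ABpIF/+ (SD, n = 6 each) and 2.68 ± 0.553 in ABpIF/F (SD, n = 3). It was called lower in both comparisons with Ctrl (log2 fold changes -2.65 and -1.35). *Lcn2*, whose product binds MMP9 and protects it from degradation, rose from 8.09 ± 1.74 to 415 ± 337 CPM in ABpIF/+ and 608 ± 434 in ABpIF/F. *Plat*, a plasminogen activator gene, was called higher in ABpIF/F vs Ctrl (log2 fold change 3.27, and 2.30 and not called without BG38), as was *Serpinf2*, the gene of the plasmin inhibitor alpha2-antiplasmin, in both comparisons with Ctrl (1.43 and 1.36).

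Of 34 matrix genes, 24 were called lower and 1 higher in ABpIF/+ vs Ctrl, 1 lower and 4 higher in ABpIF/F vs Ctrl, and 28 lower and 0 higher in ABpIF/+ vs ABpIF/F, with median log2 fold changes of -2.02, 0.48 and -2.40. Their summed level was 2876 to 4209 CPM in Ctrl (median 3774), 4016 to 6418 in ABpIF/+ (median 4147) and 5320 to 7340 in ABpIF/F. Without BG38 24 were called lower in ABpIF/+ vs ABpIF/F. The gene called lower in ABpIF/F vs Ctrl was not called in 9 of 15 fits that each left out a mouse. The fibrillar collagen genes *Col1a1* and *Col3a1*, substrates of collagenases, had log2 fold changes of -4.30 and -4.32 in ABpIF/+ vs Ctrl. *Nid1*, the gene of the basement membrane linker nidogen-1, was the 1 called higher, at 20.4 ± 7.13 CPM in Ctrl, 221 ± 45.8 in ABpIF/+ and 399 ± 96.1 in ABpIF/F. Of 18 ADAM and ADAMTS protease genes, 4 were called lower and 1 higher in ABpIF/+ vs Ctrl, 0 lower and 3 higher in ABpIF/F vs Ctrl, and 7 lower and 0 higher in ABpIF/+ vs ABpIF/F. Without BG183 5 were higher in ABpIF/F vs Ctrl. The procollagen N-proteinase genes *Adamts2* and *Adamts14* differed, with log2 fold changes of -2.32 and 1.90 in ABpIF/+ vs Ctrl.

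Of 28 transcription factor and cytokine genes known upstream of MMP genes, 7 were called higher and 3 lower in ABpIF/+ vs Ctrl, 9 higher and 0 lower in ABpIF/F vs Ctrl, and 1 higher and 7 lower in ABpIF/+ vs ABpIF/F. The latter were 0 higher and 2 lower without BG38, and 4 were lower without BG55. *Fos*, *Jun* and *Junb*, subunits of the AP-1 factor that acts downstream of ERK, rose in ABpIF/+ vs Ctrl with log2 fold changes of 4.04, 1.90 and 2.46. *Etv4*, an ETS factor, rose in ABpIF/+ (3.45) and in ABpIF/F (5.14) against Ctrl, and *Runx2* likewise (2.13 and 3.08). *Tgfb1* fell by 1.44 on the log2 scale in ABpIF/+ vs Ctrl.

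Because AP-1 and ETS genes were among those called, the promoters of the members were searched for TGANTCA (AP-1) and AGGAAG (ETS core) on both strands, from 250 bases before to 50 after the start site in the RefSeq promoter table on GRCm38.p6. The table holds *Mmp7*, *Mmp12*, *Mmp13*, *Mmp14*, *Timp1*, *Timp2* and *Timp3*. An AP-1 match was found in *Mmp7* (63 bases before the start), in the second start site of *Mmp12* (44 bases before) and in *Mmp13* (35 bases before), which lie in the MMP cluster of chromosome 9, and 7.81% of 32851 promoters hold one. The other start sites of *Mmp7* and *Mmp12* hold none. Outside the members, *Mmp1a*, *Mmp1b*, *Mmp3*, *Mmp10* and *Mmp20* on chromosome 9 also hold an AP-1 match. These genes had at most 5 counts in any mouse. An ETS match was found in *Mmp7*, *Mmp12*, *Mmp13*, *Mmp14*, *Timp1* and *Timp3*, and 35.4% of all promoters hold one. The *Timp2* window holds neither. The motifs do not overlap each other in these windows. A match is a description and not a binding site.

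The 4 promoters below are shown because they represent a member called higher in both comparisons with Ctrl (*Mmp14*), a protease called higher in ABpIF/+ vs Ctrl with an AP-1 match (*Mmp12*), a cluster neighbor with both motifs that was not called against Ctrl (*Mmp13*) and an inhibitor called lower with no match (*Timp2*). Capitals mark matches to either motif, in either orientation, and each sequence is written 5′ to 3′ on the strand of the gene.
Mmp14, chr14:54431348-54431647, plus strand: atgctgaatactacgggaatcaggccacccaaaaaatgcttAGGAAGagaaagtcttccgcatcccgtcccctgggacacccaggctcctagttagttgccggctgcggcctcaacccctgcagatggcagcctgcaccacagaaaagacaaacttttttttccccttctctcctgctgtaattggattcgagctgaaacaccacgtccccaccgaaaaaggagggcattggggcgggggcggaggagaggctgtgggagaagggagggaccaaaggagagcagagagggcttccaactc
Mmp12 second start site, chr9:7347124-7347423, plus strand: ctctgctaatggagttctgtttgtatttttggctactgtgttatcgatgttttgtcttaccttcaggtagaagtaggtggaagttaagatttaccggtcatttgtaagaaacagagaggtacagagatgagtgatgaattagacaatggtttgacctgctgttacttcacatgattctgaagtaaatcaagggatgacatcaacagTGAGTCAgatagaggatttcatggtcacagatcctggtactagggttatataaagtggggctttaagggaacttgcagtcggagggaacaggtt
Mmp13, chr9:7272264-7272563, plus strand: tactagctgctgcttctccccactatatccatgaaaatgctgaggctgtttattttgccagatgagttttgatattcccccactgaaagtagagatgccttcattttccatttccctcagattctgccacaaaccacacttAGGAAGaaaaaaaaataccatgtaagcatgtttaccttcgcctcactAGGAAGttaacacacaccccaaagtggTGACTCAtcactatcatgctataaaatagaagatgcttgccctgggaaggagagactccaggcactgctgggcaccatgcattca
Timp2, chr11:118355362-118355661, minus strand: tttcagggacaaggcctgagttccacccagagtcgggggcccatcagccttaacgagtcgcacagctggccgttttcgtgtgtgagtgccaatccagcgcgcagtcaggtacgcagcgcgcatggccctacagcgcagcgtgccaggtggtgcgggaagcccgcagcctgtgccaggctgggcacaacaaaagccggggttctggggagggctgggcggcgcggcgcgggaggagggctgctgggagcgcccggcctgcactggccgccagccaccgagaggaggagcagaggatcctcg
The *Mmp12* and *Mmp13* windows carry the AP-1 letters close to the start, and *Mmp13* also holds AGGAAG 109 and 62 bases before it. The *Mmp14* window holds 1 AGGAAG, 209 bases before the start.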

How the data were processed

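Total RNA from frozen liver was extracted with Trizol, and stranded poly(A) libraries were sequenced as paired ends. The authors aligned reads to mm10 (GRCm38) with HISAT2 (2.21 in the submitters' processing notes) and made gene counts by featureCounts 2.0.8. The annotation is not given in the sources used here. The deposited values are raw counts, 1 column per mouse for 15 mice, although 23 samples are listed, 8 mice being named by 2 samples. All 15 columns came from 1 table. In the other table, columns of 10 mice held the same counts and 5 with bare numbers as headers were not used.

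The counts were taken into edgeR 4.0.16 (R 4.3.3), which scaled libraries by TMM and fitted 1 quasi-likelihood model (older form, robust) with 3 groups to all 27179 genes. P-values were adjusted by Benjamini-Hochberg over all of them. Columns were assigned to groups by mouse name and genotype label; p-values measure the spread between these mice. The SE is the absolute log2 fold change over the square root of the F statistic, and 95% intervals use the degrees of freedom of the fit. Log2 CPM used a prior count of 2. Library totals of 24742910 to 32262649 counts limit genes with few reads. Floors of 3 counts cover counting error only, whereas the 95% intervals also include the spread between mice in the fit. Lengths and positions came from exon unions in GENCODE M21 and promoters from RefSeq. Per list, at most 6 called genes per comparison with at least 1 CPM in a group mean could be named, by largest absolute log2 fold change, with the first 3 of each marker list. The members and lists were chosen with earlier results of these data known. The scripts were tested on simulated data. Alternatives were RLE scaling, DESeq2 1.42.0, filterByExpr, the edgeR 4 method, only the groups compared, other thresholds, the clock score and leaving out each mouse. Searches of protein sequences were not run.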

Additional observations from a re-analysis of the deposited data

Results flagged for a closer look

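In 20 groups of 6 mice (10 members in Ctrl and in ABpIF/+), 3 had a mouse far from the others by Dixon's test, a test that flags about 1 in 20 groups by chance. *Mmp7* was at 1.02 CPM in the ABpIF/+ mouse BG30, and the next highest mouse was at 0.258. *Mmp12* was at 13.8 CPM in the ABpIF/+ mouse BG55, and the next was at 3.72. *Timp1* was at 1.62 CPM in the ABpIF/+ mouse BG40, and the next was at 0.202. These are 3 different mice, and each value is in the group means above.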

How the results depend on the processing

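Of 687 fold changes of members recomputed under 23 alternatives, 624 kept their direction and side of the thresholds, 34 kept the direction and lost the call, 16 gained a call and 13 changed sign. In ABpIF/+ vs Ctrl 5 members were called. A log2 fold change of at least 2 left 2, and leaving out each mouse gave 4 to 5. In ABpIF/F vs Ctrl, with 1 called, the count was 4 by DESeq2, 3 by the edgeR 4 method, 3 with only the groups compared, 5 at an adjusted p under 0.05, and 0 by edgeR with a log2 fold change of at least 2 or with the clock score (6 and 1 at an unadjusted p under 0.05). Without the score, 35.2% of all genes had an unadjusted p under 0.05 in this comparison. Leaving out each mouse gave 1 to 3 (3 without BG183, 2 without BG40 or BG55). In ABpIF/+ vs ABpIF/F, with 5 called, it was 3 with only the groups compared, 3 with a log2 fold change of at least 2 and 0 by edgeR with the clock score (3 at an unadjusted p under 0.05, 5 by DESeq2 without the score). Here 37.3% of all genes had an unadjusted p under 0.05 without the score. Leaving out each mouse gave 3 to 6 (3 without BG38 or BG90, 6 without BG40). With the clock score the log2 fold change of *Mmp19* in ABpIF/F vs Ctrl was 0.21 and that of *Mmp14* in ABpIF/+ vs ABpIF/F 0.28. The cause of these changes was not tested. Over the fits that left out a mouse, uncalled values changed sign in ABpIF/+ vs Ctrl for *Timp1* (-0.58 to 1.40) and *Timp3* (-0.15 to 0.11). In ABpIF/F vs Ctrl they did for *Mmp2* (-0.54 to 0.57), *Timp2* (-0.065 to 0.88) and *Timp3* (-0.22 to 0.54). In ABpIF/+ vs ABpIF/F they did for *Mmp7* (-0.098 to 1.13), *Mmp12* (-0.73 to 1.04) and *Timp3* (-0.57 to 0.18). *Mmp7* did not pass filterByExpr. The second deposited table was not run as a separate fit, since the columns used here hold the same counts. No paired analysis was possible because the labels give no replicate numbers shared between groups. Depth limits *Mmp7*, *Mmp13* and *Timp1*, with few reads in most mice. Leaving out mice for genes and lists outside the 10 members was chosen after seeing the data, and its values stand beside those results.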

Other observations

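The genes whose log2 CPM were most like those of a member over the 15 mice were listed among 12205 genes with a symbol and a mean of at least 1 CPM. The mice fall into 3 groups and share libraries between genes, so these Pearson coefficients are descriptions without a test. For *Mmp14* they were *Adam11*, *Tmem176b* and *Igsf9* (0.979, 0.972 and 0.968), and for *Mmp19* *Camkk2*, *Cux1* and *Cog6* (0.981, 0.971 and 0.959). For *Mmp2* they were *Lamb1*, *Mrc2* and *Tmod3* (0.939, 0.938 and 0.936), and for *Timp2* *Lpcat2*, *Lhfpl6* and *Fam111a* (0.981, 0.966 and 0.965). *Mmp12* and *Timp3* had weaker partners, led by *Dyrk1a* (0.868) and *Prkg1* (0.840).

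*Timp4* lies on the strand opposite to *Syn2*, with 90 shared exon bases. *Syn2* was at 0.0311 to 0.205 CPM in Ctrl, 0.239 to 3.95 in ABpIF/+ and 0.143 to 0.665 in ABpIF/F mice, so that both genes of this locus had their highest values in ABpIF/+ mice, and their reads cannot be told apart if counted without strand.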
